A study of Mus musculus with 18 samples.

Results

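The nuclear pore complex genes described here are 30 mouse nucleoporin genes, taken by symbol from the gene counts and grouped by where their proteins sit in the pore, out of 55401 genes in the counting table. To them belong 80 of the 16171 circular RNAs (circRNAs) listed over the 12 circRNA libraries, each lying wholly inside a nucleoporin gene. The cells were NIH/3T3, a line of mouse embryonic fibroblasts, either wild type (WT) or carrying a CRISPR-Cas9 knockout (KO) of Xpo4, which codes for exportin 4. All KO libraries came from 1 edited cell line, so the edit cannot be told apart from other differences between the lines. The 6 mRNA-seq libraries, 3 for each genotype, held between 16974062 and 22057323 counted reads. The 12 circRNA libraries were made from RNA treated with RNase R, which digests linear RNA, with 2 libraries of each genotype from nuclear, cytoplasmic and whole-cell RNA. They held 2189 to 4383 junction reads in the nucleus and 50341 to 81941 in the other fractions. Nothing in the sources used here says that replicates came from separate cultures, so the p-values measure the spread between these libraries, which may be technical.

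The nuclear pore is a channel through both membranes of the nuclear envelope, built from many copies of nucleoporins. The Y complex and the inner ring form the scaffold, transmembrane nucleoporins anchor it, nucleoporins rich in phenylalanine-glycine repeats fill the channel, filaments reach into the cytoplasm and a basket reaches into the nucleus. Carriers such as exportin 4 pass through the channel with their cargo, and messenger RNPs dock at the basket and are remodelled at the cytoplasmic filaments. A circRNA arises when the end of a downstream exon is spliced back to the start of an upstream exon of the same transcript, which gives a junction that the linear mRNA lacks.

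The genotype of the mRNA libraries rests on their titles. Inside all 6 mRNA count files the header names an alignment of the other genotype, and the direction of every mRNA difference below would turn if the headers were right. Xpo4 did not settle the question. It had 657, 614 and 685 reads in the libraries labelled WT and 712, 504 and 687 in those labelled KO, with a log2 fold change (KO minus WT) of 0.18 (SE 0.11, edgeR adjusted p = 0.193). Without KO library 2, which differed most from its own group, Xpo4 was called higher in the libraries labelled KO (log2 fold change 0.34, edgeR adjusted p = 0.000252). The mRNA libraries also differed in reads of Y-linked genes. Ddx3y had 0 reads in the mRNA libraries labelled WT and 506 to 594 in those labelled KO. CircRNAs of the Y-linked gene Uty had 10 and 12 junction reads in the whole-cell circRNA libraries labelled WT. They had 19 and 24 in those labelled KO, and 0 in the nuclear and cytoplasmic libraries of both genotypes. The median log2 fold change was 0.45 over the 689 genes tested on chromosome 10 and -0.21 over the 885 on chromosome 1, against -0.0029 over all 14688 genes tested. The fibroblast markers summed to 2678 to 2869 FPKM in the 6 libraries, and the epithelial markers stayed at or below 0.128 FPKM. Of the 9 fibroblast markers, 5 were called higher labelled KO, among them Thy1 at 0.86, against 25.1% of all genes. Another 3 were called lower, among them Col1a1 at -0.34, against 23.6%. The haematopoietic markers summed to 4.04 to 5.90 FPKM labelled WT and 2.97 to 3.89 labelled KO. Ptprc, which codes for CD45, was lower with a log2 fold change of -1.78 and Cd68 with -0.71. Hba-a1 went the other way, with 0 reads in each library labelled WT and 6 to 8 labelled KO, and was not tested. Their part in the results was not tested.

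The 6 circRNAs of nucleoporin genes shown first, those with the most junction reads over the 12 libraries, are given by their backsplice junction because the reads counted for a circRNA are the reads across it. Each line reads 5′ to 3′ along the transcript on GRCm38, with the last 15 bases of the last exon in lower case and the first 15 bases of the first exon in capitals. Numbers in brackets are the first and last exon of the circle.
circNup155(26-28): ggcggacatgcacagATTAAACAGTTACAA
circTpr(30-31): gcgcaacaaaacaagCAACTAATAAATCAA
circNup214(22-26): gggataaagctgtagCCAGCCTGTCCCGGT
circNup205(6-7): taccggatgtaacagGTTTCTGATCTCATC
circNup98(2-4): caactggctttgggaCTTTCTGAAGCAAAC
circNup98(21-22): aatcccgctccatagAGCCAGAGCCCAGAA

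These circles lie at chr15:8147143-8148451, chr1:150428120-150429545, chr2:32017026-32026926 and chr6:35189855-35192038 on the plus strand, and at chr7:102194661-102195888 and chr7:102138732-102139650 on the minus strand, in that order. Their ends lie on annotated exon edges. Junction reads do not show what lies between the ends, so lengths here are those of the annotated exons joined without introns, 337 to 729 nt. By the annotation circNup98(2-4) includes bases outside the coding sequence, and the exons of the other 5 are coding.

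Nucleoporin mRNAs differed widely in level (the plot of FPKM by gene). Here FPKM is reads scaled to the exon length of the gene and the counted reads of the library, so that genes of different length can be compared. Sec13, a Y complex subunit that also serves in COPII vesicles, had the highest mean level, with 40.7, 43.6 and 42.9 FPKM in the libraries labelled WT and 55.4, 61.7 and 57.1 in those labelled KO. Nup62, the central channel protein, was next, with 43.9, 45.2 and 45.7 FPKM labelled WT and 40.6, 44.3 and 40.8 labelled KO. Nup85, of the Y complex, followed at 29.9 ± 0.546 and 28.7 ± 1.21 FPKM (SD, n = 3 each). The genotypes overlapped for Nup62 and Nup85 and did not overlap for Sec13. At the low end, Nup160 of the Y complex had 4.87 ± 0.275 FPKM labelled WT and 3.79 ± 0.344 labelled KO. Nup210, the membrane nucleoporin known from muscle and neural differentiation, had 14 to 17 reads per library labelled WT and 5 to 16 labelled KO, or at most 0.0857 FPKM, so its log2 fold change of -0.29 has a wide 95% interval, from -1.09 to 0.51.

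**Figure D1:**
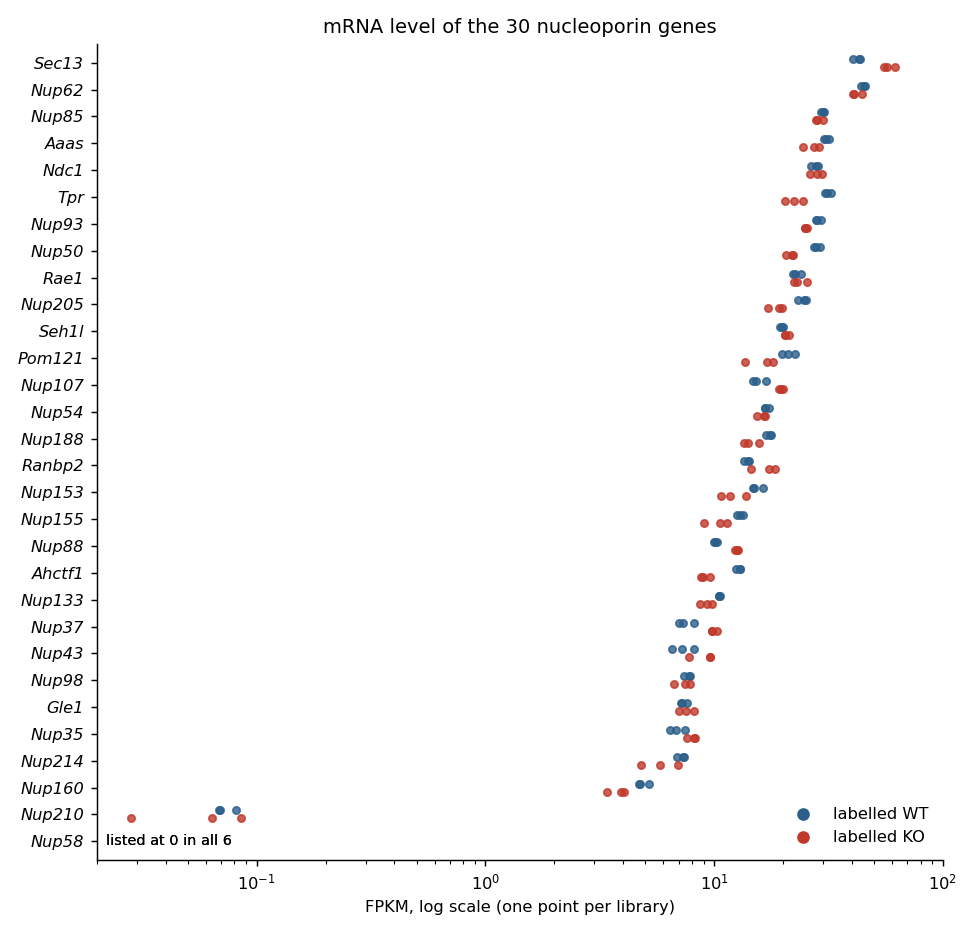
mRNA level of the 30 nucleoporin genes in FPKM on a log axis, with a point for each of the 6 libraries (blue labelled WT, red labelled KO), ordered by the mean over all 6. Sec13 leads at 42.4 FPKM labelled WT and 58.1 labelled KO, Nup210 lies below 0.1 FPKM and Nup58 is listed at 0.

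Nup58, a partner of Nup62 in the central channel, was listed at 0 in all 6 mRNA libraries. Of its exon bases in the counting annotation, 55.4% are shared with other gene models, among them Gm49336, which had 843 to 902 reads in the libraries labelled WT and 774 to 821 in those labelled KO. Reads that fall on exons of more than 1 gene were not counted for either, but the other exon bases of Nup58 had no counted read as well, and the reason for the 0 was not tested. No level or difference is given for Nup58 mRNA, and 29 of the 30 genes were tested. The circRNAs of Nup58 are described further on. Among the other genes, Nup188 shares 12.4% of its exon bases with other models, Pom121 11.9% and Nup133 10.4%, and the counting did not use strand.

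Nucleoporin mRNAs moved in both directions between the genotypes, and more of them were lower in the libraries labelled KO. Of the 29 tested, 20 differed (edgeR quasi-likelihood test, Benjamini-Hochberg adjusted p under 0.05), against 48.7% of all genes tested. Of these, 13 were lower, against 23.6% of all genes, and 7 were higher, against 25.1%. No change reached 1.5-fold: they ran from -0.49 (Ahctf1) to 0.45 (Sec13) on the log2 scale. The median over the 29 was -0.10, against -0.0029 over all genes. FPKM of the genotypes did not overlap for 20 of the 29, against 57.8% of all genes. In bulk RNA, fewer cells of a kind and less RNA per cell cannot be told apart.

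The 3 genes of the nuclear basket were all lower, against 23.6% of all genes tested. Tpr (chr1:150392838-150449935), the long coiled-coil filament of the basket, had 32.6, 30.5 and 31.1 FPKM in the libraries labelled WT and 22.5, 20.4 and 24.6 in those labelled KO. Its level fell by 0.49 on the log2 scale (SE 0.065, edgeR adjusted p = 4.03e-05). Nup153 (chr13:46679905-46727940), which joins the basket to the nuclear ring and the lamina, had 16.4, 14.9 and 14.9 FPKM labelled WT and 11.7, 10.7 and 13.8 labelled KO. It fell by 0.35 (SE 0.081, edgeR adjusted p = 0.00295). Nup50 (chr15:84923411-84942963), a mobile basket nucleoporin that binds importin alpha, had 27.8, 27.3 and 29.1 FPKM labelled WT and 22.1, 20.7 and 21.8 labelled KO. It fell by 0.38 (SE 0.055, edgeR adjusted p = 7.69e-05). In each of the 3, every library labelled KO lay below every library labelled WT. Over all genes tested, the genotypes did not overlap, in either direction, for 57.8%.

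The Y complex, the outer scaffold, split. Of the 9 genes placed in it here, 4 were higher (Sec13, Nup37, Nup107, Nup43), against 25.1% of all genes tested. All of these but Sec13 turned sign and lost their call with chromosome medians taken off. Another 3 were lower (Ahctf1, Nup160, Nup133), against 23.6%, and 2 did not pass. Ahctf1 (chr1:179744894-179803680) codes for ELYS, which brings the Y complex to chromatin when the envelope reforms. Its level was 13.0, 12.9 and 12.4 FPKM labelled WT and 8.98, 8.76 and 9.60 labelled KO, and it fell by 0.49 (SE 0.055, edgeR adjusted p = 8.42e-06). Nup160 fell by 0.37 (SE 0.077, edgeR adjusted p = 0.00156). Sec13 (chr6:113728062-113740743) rose by 0.45 (SE 0.061, edgeR adjusted p = 4.14e-05). Nup37, a peripheral Y complex subunit, had 7.03, 7.29 and 8.16 FPKM labelled WT and 9.80, 10.3 and 9.79 labelled KO, a log2 fold change of 0.41 (SE 0.078, edgeR adjusted p = 0.000782). Nup107, on the stem of the Y, had 14.8, 16.9 and 15.3 FPKM labelled WT and 19.7, 20.0 and 19.3 labelled KO, a log2 fold change of 0.33 (SE 0.063, edgeR adjusted p = 0.000870). Nup43 overlapped between the genotypes, with 6.52 to 8.16 FPKM labelled WT and 7.78 to 9.61 labelled KO (log2 fold change 0.30, edgeR adjusted p = 0.0349). Nup43 was not called when any of 4 of the 6 libraries was left out (KO library 2 or 3, WT library 1 or 3; edgeR adjusted p between 0.0519 and 0.141).

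All 5 inner ring genes passed, against 48.7% of all genes tested. Of them, 4 were lower, against 23.6%, and 1 was higher, against 25.1%. Nup205, a large scaffold protein, was at 25.2, 24.7 and 23.2 FPKM labelled WT and at 19.3, 17.1 and 19.8 labelled KO, and fell by 0.38 (SE 0.062, edgeR adjusted p = 0.000223). Nup155, which reaches towards the membrane, was at 13.4, 13.0 and 12.6 FPKM labelled WT and at 10.6, 9.01 and 11.4 labelled KO, and fell by 0.34 (SE 0.073, edgeR adjusted p = 0.00193). Nup188 and Nup93 were lower as well, with log2 fold changes of -0.27 and -0.18. Nup35 was the exception at 0.21 (edgeR adjusted p = 0.0428), and it was not called by DESeq2 (adjusted p = 0.0856), with chromosome medians taken off, or without KO library 1 or 2 or WT library 2 or 3 (edgeR adjusted p from 0.0551 to 0.172). Nup93 was not called without KO library 1 or WT library 1 (edgeR adjusted p = 0.0586 and 0.0628), nor Nup133 without KO library 1 or WT library 3 (edgeR adjusted p = 0.0535 and 0.0602). Of the transmembrane genes, Pom121 had 22.6, 21.0 and 19.7 FPKM labelled WT and 17.0, 13.6 and 18.2 labelled KO, and fell by 0.38 (SE 0.088, edgeR adjusted p = 0.00296). Ndc1, which anchors the pore in the membrane, gave 0.02 (95% interval -0.09 to 0.14).

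On the cytoplasmic face, 2 genes were higher, against 25.1% of all genes tested, 2 were lower, against 23.6%, and 1 did not pass. Nup88 had 10.3, 10.1 and 10.0 FPKM labelled WT and 12.3, 12.6 and 12.7 labelled KO, with a log2 fold change of 0.30 (SE 0.053, edgeR adjusted p = 0.000372). Its binding partner Nup214 moved the other way, by -0.30 (edgeR adjusted p = 0.0219), with 6.89 to 7.36 FPKM labelled WT and 4.78 to 6.93 labelled KO, so that the genotypes overlapped, and it was not called without KO library 1 or WT library 1 or 3 (edgeR adjusted p from 0.0611 to 0.0706). Ranbp2, the SUMO ligase of the cytoplasmic filaments, rose by 0.27 (SE 0.075, edgeR adjusted p = 0.00917), from 13.6 to 14.3 FPKM labelled WT to between 14.6 and 18.6 labelled KO. Aaas, which codes for aladin, was at 30.3 to 31.9 FPKM labelled WT and 24.5 to 28.9 labelled KO (log2 fold change -0.20, edgeR adjusted p = 0.0242), and lost its call with chromosome medians taken off and without KO library 1 or WT library 2 or 3 (edgeR adjusted p from 0.0630 to 0.147). The tested channel genes Nup54 and Nup62, and Nup98 and Rae1, which act on both faces, did not pass, at -0.10 to 0.05 on the log2 scale, though Nup62 was called lower without KO library 2 (-0.15, edgeR adjusted p = 0.0233).

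Chromosome moved with the direction of the calls. All 4 nucleoporin genes on chromosome 10 (Nup37, Nup43, Nup107 and Ranbp2) were among the 7 that were higher, with log2 fold changes from 0.27 to 0.41, and 66.0% of all genes tested on that chromosome were higher as well. When the median of each chromosome was taken off, none of these 4 was called, and they turned to between -0.18 and -0.04. Over all tested members, 14 were then called, against 46.1% of all genes, with 12 lower against 22.1% and 2 higher against 24%. The 2 were Sec13 (0.58, edgeR adjusted p = 5.07e-06) and Nup88 (0.27, edgeR adjusted p = 0.00113). Tpr and Ahctf1, on chromosome 1, fell by 0.28 after the same step and stayed past the threshold (edgeR adjusted p = 0.00353 and 0.000992), as did Nup50 on chromosome 15 (-0.26, edgeR adjusted p = 0.00158). The part of chromosome in the member differences was not tested.

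**Figure D2:**
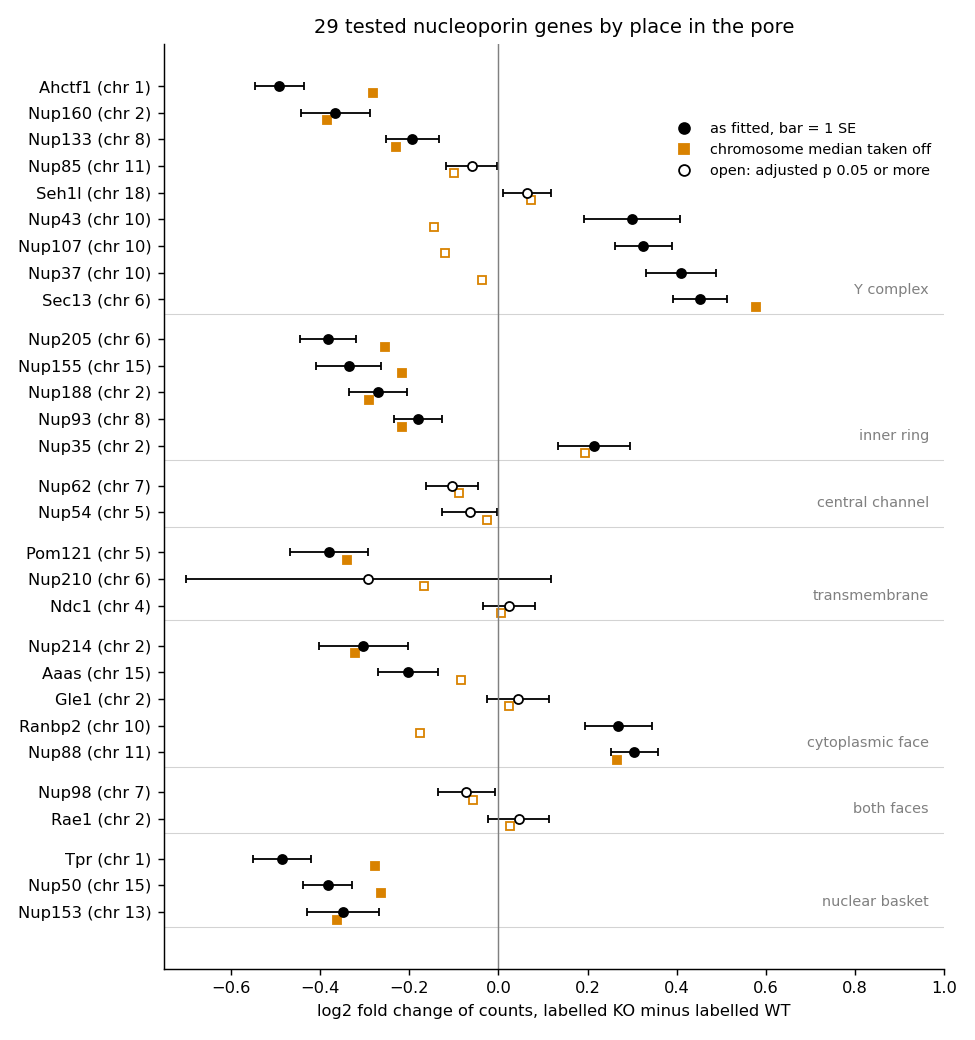
log2 fold change (labelled KO minus labelled WT) of the 29 tested nucleoporin genes, grouped by place in the pore. Black circles with bars of 1 SE are the values as fitted and orange squares the values with the chromosome median taken off, open where the adjusted p was 0.05 or more. The 3 basket genes lie left of 0 on both scales, and the 4 chromosome 10 genes move from the right of 0 to its left.

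Exon length moved with the direction too. Of the 15 members with more than 5000 nt of exon, 10 were lower and 2 were higher, with a median log2 fold change of -0.30. The 14 tested members up to 5000 nt had 3 lower and 5 higher, with a median of 0.03. Over all genes tested, of any length, 23.6% were lower and 25.1% higher. The Spearman correlation of log2 fold change with exon length was -0.54 over the 29 members, against -0.06 over all 14688 genes, whose medians were -0.05 above and 0.03 up to that length. With chromosome medians taken off, the longer members had 10 lower and 1 higher, with a median of -0.26. The shorter ones then had 2 lower and 1 higher, with a median of -0.06. Over all genes, 22.1% were then lower and 24% higher. The part of length in the member differences was not tested. Proliferation markers moved as well: 5 of 8 were lower, against 23.6% of all genes, with Mki67 at -0.31 and Mcm5 at -0.42. Ccna2 and Pcna did not pass. Cdk1 on chromosome 10 was higher at 0.57 but not called with chromosome medians taken off (0.12, edgeR adjusted p = 0.0858). The part of these markers in the result was not tested.

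Other genes of the pore and the envelope showed calls in both directions. Of 16 tested genes for pore-associated proteins, 4 were lower and 5 higher, against 23.6% and 25.1% of all genes. Ddx19b and Senp1 were lower, at -0.48 and -0.42, while Ddx19a, the paralogue of Ddx19b in the release of mRNPs at the filaments, was higher at 0.22. Of 20 envelope genes, 7 were lower and 7 higher, against the same shares. The KASH protein genes Syne2 and Syne3, which link the nucleus to the cytoskeleton, were lower by more than any nucleoporin gene, at -0.92 and -1.04, and Lmnb1, Lbr and Lmna, of the lamina and the inner membrane, were lower at -0.28, -0.32 and -0.21. Lmnb2, another lamin gene, on chromosome 10, did not pass (0.14, edgeR adjusted p = 0.101). With chromosome medians taken off it was called lower (-0.31, edgeR adjusted p = 0.00218). Lbr, on chromosome 1, lost its call with the same step (-0.11, edgeR adjusted p = 0.193). Emd, for emerin, was higher at 0.41. Tmpo on chromosome 10, for lamina-associated polypeptide 2, was higher at 0.36 but turned to -0.083 with chromosome medians taken off (edgeR adjusted p = 0.202).

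The promoters of the 3 basket genes, which were lower together, are shown from RefSeq (GRCm38.p6), from 250 bases before the transcription start to 50 after it, 5′ to 3′ along the gene. Capitals mark matches to 6 motifs searched on both strands. These were the CCAAT box by those letters, an ETS core (CCGGAAG), an NRF1 core (GCATGCG), an E-box (CACGTG), a YY1 core (ATGGCGG) and a TATA box (TATAAA). The NRF1 core overlaps its own reverse complement by 6 bases, so that a run of 8 capitals can hold a match on each strand. Nup50 lies at chr15:84923178-84923477, Nup153 at chr13:46727800-46728099 on the minus strand and Tpr at chr1:150392588-150392887.
Nup50: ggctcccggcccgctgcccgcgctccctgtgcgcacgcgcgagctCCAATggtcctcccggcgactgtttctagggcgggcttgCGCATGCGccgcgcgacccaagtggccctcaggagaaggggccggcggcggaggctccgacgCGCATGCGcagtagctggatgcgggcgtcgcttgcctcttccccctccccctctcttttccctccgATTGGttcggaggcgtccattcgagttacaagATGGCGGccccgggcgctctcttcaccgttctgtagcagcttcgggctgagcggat
Nup153: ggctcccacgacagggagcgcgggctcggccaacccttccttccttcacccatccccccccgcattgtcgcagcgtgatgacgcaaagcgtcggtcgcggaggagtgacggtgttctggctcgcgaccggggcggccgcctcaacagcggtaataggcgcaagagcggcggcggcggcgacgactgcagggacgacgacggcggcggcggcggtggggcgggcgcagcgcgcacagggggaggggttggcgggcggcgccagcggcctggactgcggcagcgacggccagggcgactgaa
Tpr: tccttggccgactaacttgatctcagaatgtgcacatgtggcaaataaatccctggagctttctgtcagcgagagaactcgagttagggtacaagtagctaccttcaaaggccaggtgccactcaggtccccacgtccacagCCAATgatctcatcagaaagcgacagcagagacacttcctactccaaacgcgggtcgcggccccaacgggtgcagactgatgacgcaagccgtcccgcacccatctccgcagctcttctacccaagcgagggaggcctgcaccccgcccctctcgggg

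The basket promoters shared no motif across all 3. Nup50 held the NRF1 core at 2 places, 2 CCAAT boxes and a YY1 core, Tpr held a CCAAT box, and Nup153 held none of the 6. Promoters were matched for 26 of the 30 members, all but Nup35, Nup43, Nup85 and Seh1l. An ETS match lay in 8 of the 26 (30.8%), against 9.12% of all 27025 promoters, an NRF1 match in 4 (15.4% against 3.64%) and a YY1 match in 5 (19.2% against 4.19%). An E-box lay in 4 (15.4% against 7.24%), a CCAAT box in 9 (34.6% against 37.9%) and a TATA box in 2 (7.69% against 14.2%). Of the 13 lower members, 2 held ETS and 3 held YY1, and of the 5 higher members with a promoter, 3 held ETS and 1 held YY1. A match is a description of letters and not of binding. The motif letters were settled after the promoters had been seen, and the comparison was with all promoters rather than those of tested genes.

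CircRNAs came from 20 of the 30 nucleoporin genes. Nup98, which with Rae1 works in mRNA export, gave 11, Nup205, Ranbp2 and Ndc1 gave 8 each, and Nup133 and Ahctf1 gave 7 each. None was listed for Nup35, Nup50, Nup54, Nup62, Seh1l, Rae1, Nup210, Nup88, Gle1 or Aaas. Over the 30 genes the number of listed circRNAs had a Spearman correlation of 0.46 with exon length. Nup62, the second most abundant nucleoporin mRNA, gave none, while Nup98, at rank 24, gave 199 junction reads, the most of any member.

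The circles were multi-exonic. Of the 80, 79 had both ends on annotated exon edges, and all 79 were flanked by AG before the first exon and GT after the last. They joined 2 to 22 exons (median 4), with 20 circles of exactly 2 exons, and had spliced lengths of 179 to 3196 nt (median 574). None used the first or the last exon of its transcript, and 11 began at exon 2. By the annotated exons, coding sequence alone made up 75 of them, and 29 of these had a length that is a multiple of 3. Circles of a gene shared ends: 16 of 60 distinct first exons and 7 of 70 distinct last exons were used by more than 1 circle (the map of exons joined). Exon 16 of Ndc1 closed 4 circles, exon 6 of Nup205 opened 3, and exon 2 of Nup58 opened 3.

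**Figure D3:**
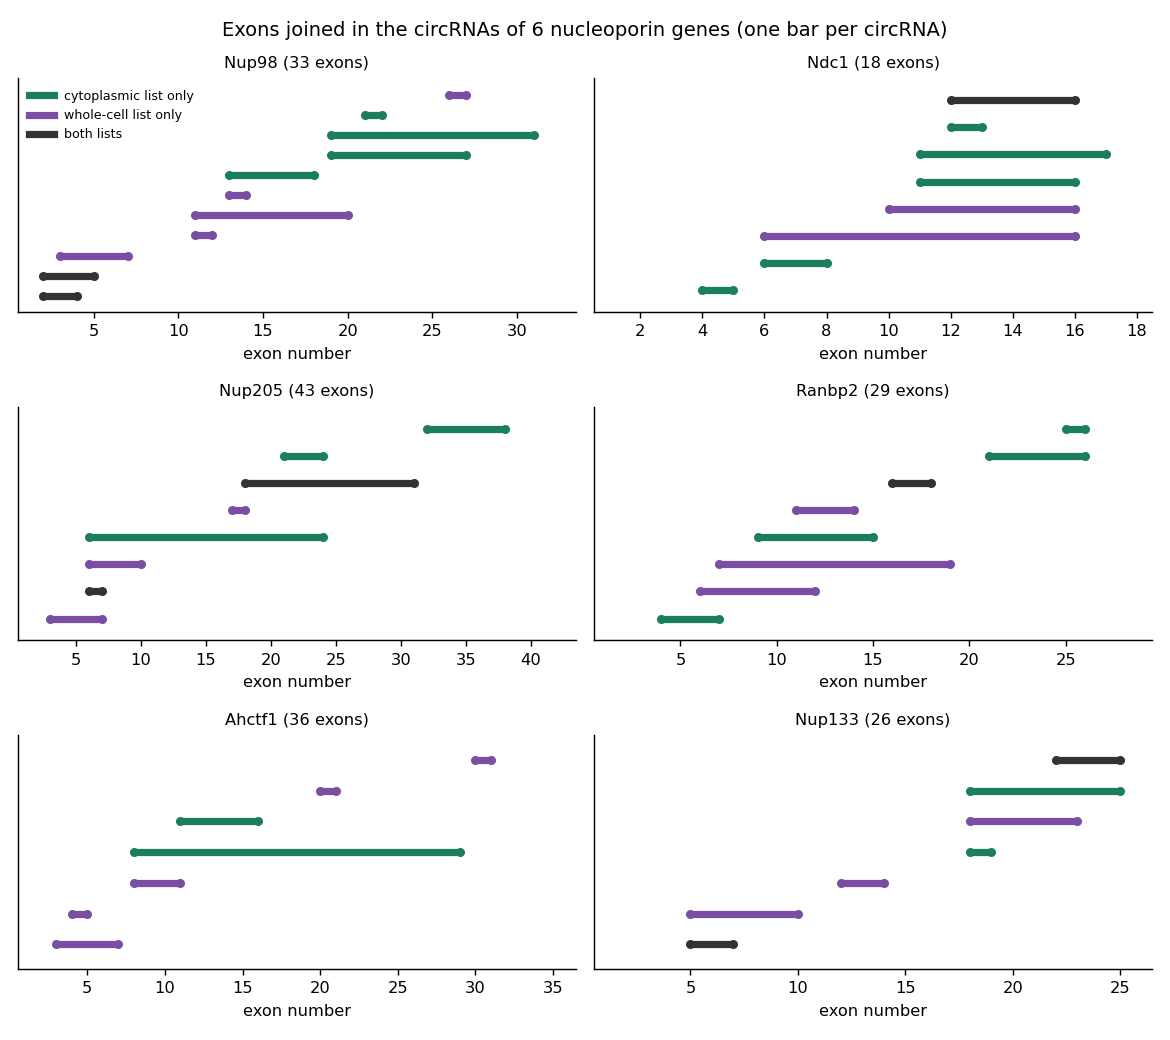
Exons joined by each circRNA of the 6 nucleoporin genes with the most circRNAs, with a bar from the first to the last exon of each circle and the exon number on the horizontal axis. Green circles were listed in cytoplasmic libraries, purple in whole-cell libraries and black in both; exon 16 of Ndc1 closes 4 circles.

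The circle with an end off the annotated edges lay in Pom121 (chr5:135392310-135392548, 239 bases), overlapping exon 2, and was likewise flanked by AG before and GT after. It was the only nucleoporin circle in the nuclear lists, with 1 and 3 junction reads in the KO libraries and 2 and 2 in those of WT, and was not listed in any other fraction. Its reads were too few for a test, while 10.1% of the 651 nuclear circRNAs tested passed. The cytoplasmic lists held 46 nucleoporin circles and the whole-cell lists 44. Only 11 were in both, which is 23.9% of the cytoplasmic and 25% of the whole-cell ones. Over all circRNAs, 4803 were in both, 49.8% of the cytoplasmic and 44.9% of the whole-cell lists. The lists hold no circle of these genes with fewer than 7 reads summed over the 4 libraries of a fraction, so a circle absent from a list is not shown to be absent from the fraction.

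Circles of nucleoporin genes had a larger share of the cytoplasmic circRNA reads in both KO libraries than in either WT library, in a design too small to pass a test. Their share was 0.211% and 0.255% in the WT libraries and 0.438% and 0.347% in the KO libraries, from 164 to 222 junction reads per library. The mean difference was 0.160 percentage points, and the exact two-sided permutation test gave p = 0.33, which no split of 4 libraries can go below. In whole-cell RNA the WT libraries gave 0.244% and 0.274% and the KO libraries 0.232% and 0.282%, and the genotypes overlapped.

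In the cytoplasm, 27 of the 44 nucleoporin circles tested differed between the genotypes, against 53.5% of all circRNAs tested. Of these, 18 were higher in KO, against 30% of all, and 9 were lower, against 23.5%. The median log2 fold change over the 44 was 0.91, against -0.25 over all circRNAs tested. With the 4 circles that had 0 reads in a genotype set at the bound that 3 reads allow it was 0.91 as well, since these circles lie far from the median on either scale. Leaving out a library lowered the count of calls to between 9 (without KO library 1) and 22 (without WT library 1); it was 12 without KO library 2 and 15 without WT library 2, with 27 to 30 of the 44 left to test. DESeq2 called 8, all higher, and over all circRNAs it called 755 higher and 124 lower. In turn edgeR without any scaling called 11, 6 higher and 5 lower, while its calls over all circRNAs turned from 2671 higher and 2097 lower to 837 and 1516. The median over all circRNAs then moved to -0.77 and that over the members to 0.37. The counts behind these calls were small, at most 18 junction reads for a circle in a library. The shares did not overlap between the genotypes for 45 of the 46 listed circles, against 82.8% of all cytoplasmic circRNAs, with 25 higher against 38.9% and 20 lower against 43.8%.

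Among the higher ones, circNup98(21-22) came first by p. Its KO cytoplasm had 18 and 17 junction reads against 0 and 1 for WT, and it was in no whole-cell or nuclear list. The ratio of summed reads, scaled to the totals, was 49.1, with an exact 95% counting interval from 8.25 to 1993 (edgeR adjusted p = 0.000138). Next were circles with no WT read: circRanbp2(25-26) with 9 and 7 reads in KO (edgeR adjusted p = 0.000204), circNdc1(11-17) with 10 and 6 (edgeR adjusted p = 0.000254) and circAhctf1(11-16) with 9 and 5 (edgeR adjusted p = 0.000369). With no WT read, these circles reached the minimum of 10 summed reads through KO alone, so their p-values add no support for the direction. circNup133(18-25) had 13 and 8 reads in KO against 2 and 0, and its ratio was 14.7 (interval 3.60 to 129). circRanbp2(16-18) had 13 and 10 against 3 and 0 (not called without WT library 2, edgeR adjusted p = 0.0803), circRanbp2(4-7) 6 and 18 against 2 and 2, and circNup43(4-5) 9 and 5 against 0 and 1. These 8 circles were picked by smallest p, and in each of them every KO library exceeded every WT library. The shares of reads did so for 25 of the 46 listed circles and for 38.9% of all cytoplasmic circRNAs. Without scaling, circNup98(21-22) and circRanbp2(25-26) were called (edgeR adjusted p = 0.0339 and 0.0417) and the other 6 were not (edgeR adjusted p from 0.0608 to 0.112). circRanbp2(25-26) and circAhctf1(11-16) had too few reads for the test without either KO library. The same held for circNdc1(11-17) and circNup43(4-5) without KO library 1.

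Lower circles came in part from the same genes. circNup98(2-4), at the 5′ end of Nup98, fell from 14 and 12 junction reads in the WT cytoplasm to 1 and 1, a ratio of 0.108 with an exact 95% counting interval from 0.0124 to 0.431 (edgeR adjusted p = 0.00104; DESeq2 adjusted p = 0.0751). Without KO library 2 it was not called (edgeR adjusted p = 0.0546). Whole-cell RNA held 4 and 6 reads of it for WT against 2 and 2 for KO. circTpr(30-31), the only circle of Tpr, fell from 7 and 16 reads to 1 and 1, a ratio of 0.122 (interval 0.0139 to 0.493, edgeR adjusted p = 0.00263, DESeq2 adjusted p = 0.0975). Without KO library 1 or 2 it was not called (edgeR adjusted p = 0.0868 and 0.111), and without WT library 2 its reads were too few for the test. Whole-cell RNA held 8 and 13 reads for WT against 3 and 5 (edgeR adjusted p = 0.103; 0.0420 without WT library 1). Tpr mRNA, by the library titles, and this cytoplasmic circle were thus both lower in the libraries labelled KO. Ahctf1 differed: its mRNA was lower while circAhctf1(8-29) and circAhctf1(11-16), its only cytoplasmic circles, were called higher. Whether the mRNA and the circles of a gene move together was not tested.

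Circles of a gene that share an end did not all move alike. circRanbp2(21-26), which ends at the same exon as the higher circRanbp2(25-26), had 6 and 7 reads in the WT cytoplasm and none in KO (edgeR adjusted p = 0.00179). circNdc1(11-16), which begins at the same exon as the higher circNdc1(11-17), had 5 and 5 reads in WT against 0 and 1 (edgeR adjusted p = 0.0366). With no KO read, circRanbp2(21-26) reached the minimum of 10 summed reads through WT alone, so its p-value adds no support for the direction. Both circRanbp2(21-26) and circNdc1(11-16) had too few reads for the test when either WT library was left out. The difference between such circles was not tested.

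In the cytoplasm the other circles among the 10 with most reads were called lower or did not pass. circNup155(26-28), with 60 junction reads over the 12 libraries the most of all, had 12 and 14 in the WT cytoplasm against 5 and 5 (log2 fold change -0.82, SE 0.49, edgeR adjusted p = 0.156). circNup214(22-26), from the filament nucleoporin Nup214, had 7 and 15 for WT against 16 and 15 (log2 fold change 1.05, SE 0.57, edgeR adjusted p = 0.116), and was listed in the cytoplasm alone. circNup205(6-7) had 6 and 8 for WT against 11 and 10 (log2 fold change 1.12, SE 0.48, edgeR adjusted p = 0.0524; 0.0215 without KO library 2). circNup133(22-25) had 9 and 12 against 1 and 2 (edgeR adjusted p = 0.00722), circPom121(2-3) 8 and 9 against 0 and 3 (edgeR adjusted p = 0.0303), and circNdc1(12-16) 6 and 9 against 2 and 3 (edgeR adjusted p = 0.194). circNup133(22-25) was not called without KO library 1 or 2 (edgeR adjusted p = 0.246 and 0.109), nor circPom121(2-3) without KO library 1 (edgeR adjusted p = 0.653).

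**Figure D4:**
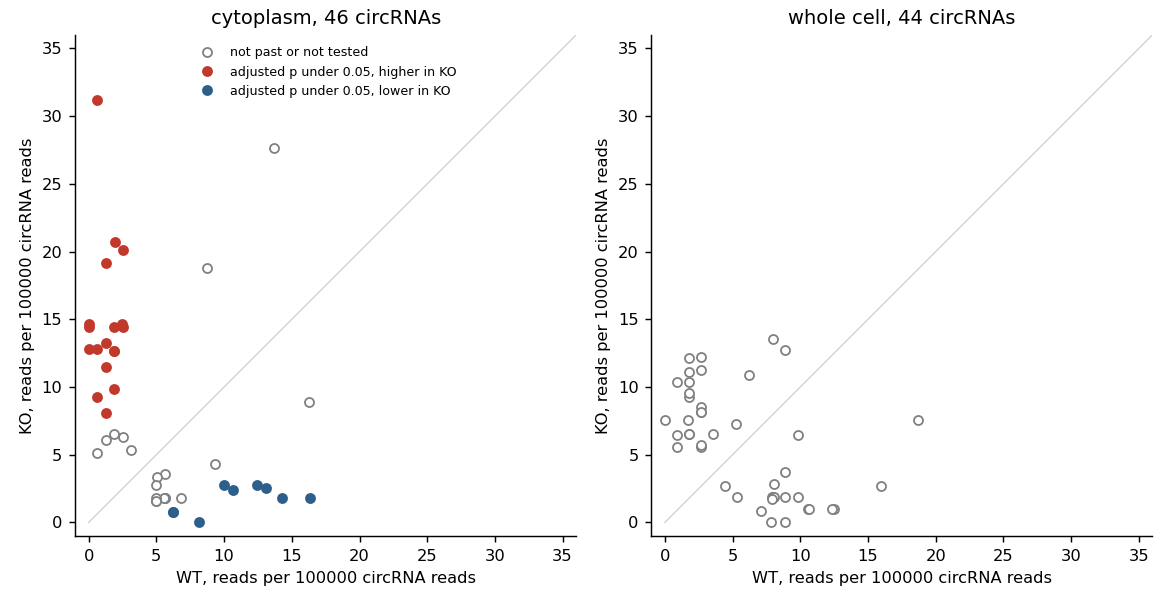
Mean junction reads per 100000 circRNA reads in WT (horizontal) and KO (vertical), 2 libraries each, for the nucleoporin circRNAs of the cytoplasm (left, 46) and the whole cell (right, 44), with the diagonal in grey. Filled circles passed an adjusted p under 0.05 in edgeR: 18 higher in KO (red) and 9 lower (blue) in the cytoplasm, and none in the whole cell.

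In whole-cell RNA, 0 of the 33 nucleoporin circles tested passed with edgeR, as did 0% of all 8903 circRNAs. At an unadjusted p under 0.05 there were 20 of 33, 8 higher against 19.9% of all and 12 lower against 18.4%, with 38.2% of all in either direction, and DESeq2 called 0 of the 33. The smallest adjusted p among them was 0.0580. With library totals in place of TMM factors edgeR called 12, 5 higher and 7 lower, and with the replicate number as a block it also called 12, 5 higher and 7 lower, so that the count of 0 changes with either choice. The shares did not overlap between the genotypes for 40 of the 44 listed circles, against 73.2% of all, with 21 higher against 34.7% and 19 lower against 38.5%. circNup205(3-7) had 9 and 9 junction reads for WT against 2 and 1 for KO, and circNup205(6-7), which ends at the same exon, had 6 and 8 against 0 and 1. The 3 circles of Nup58, whose mRNA was listed at 0, were listed in whole-cell RNA alone: circNup58(2-7) with 4 and 7 reads for WT against 4 and 3, circNup58(2-9) with 2 and 1 against 5 and 7, and circNup58(2-8) with 3 and 5 against 1 and 0. They begin at the same exon and differ in the exon that closes them.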

How the data were processed

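The authors deposited a count of junction reads per circRNA and library from find_circ, and gene-level counts made with HISAT2 alignment to GRCm38 followed by featureCounts 2.0.0, all raw. Multi-gene reads were left out by the counting. Filters on the circRNA lists before deposit are not given in the sources used here.

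Genotypes were compared with edgeR (version 4.0.16, R 4.3.3; glmQLFit, glmQLFTest, TMM factors, two-sided, Benjamini-Hochberg over all features, threshold 0.05) on the whole table, after edgeR's own filter for genes and a minimum of 10 reads summed over 4 libraries for circRNAs. SE is the log2 fold change divided by the root of F. Alternatives were DESeq2 (version 1.42.0), other scalings, no filter, chromosome medians taken off, leaving out each library, and a replicate block. The fits were tested on simulated data. FPKM was the count divided by exon length and counted reads. Host exons came from GENCODE transcripts. The genes named were those with an adjusted p under 0.05 (12 largest), the 3 highest and lowest levels, and members on chromosomes whose median moved by over 0.1. The circRNAs named were the 8 smallest p per fraction and the 10 with most reads; others named were chosen after their values were seen. Motif letters were settled after the promoters had been seen. The members, lists and tests were chosen with earlier results of these data known. Junction reads carry no molecular identifiers that the sources name, so limits from counts cover counting error only.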

Additional observations from a re-analysis of the deposited data

Results flagged for a closer look

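Of the 11 nucleoporin circles listed in both cytoplasm and whole cell, 6 moved in opposite directions between the fractions with no overlap between the 2 KO and 2 WT libraries in either, which is 54.5%, against 23.8% of the 4803 circRNAs of all genes in both lists. The other 5 moved the same way in both fractions with no overlap, which is 45.5%, against 24.8%. Both shares were above those over all circRNAs, since none of the 11 overlapped between the genotypes in either fraction. Over all circRNAs, 1144 moved in opposite directions and 1193 the same way, so opposite and same movement were close to even in each set. In reads per 100000 circRNA reads, KO minus WT, circNup205(6-7) gave 10.0 in the cytoplasm and -11.5 in the whole cell, and circNup133(5-7) gave 11.9 and -7.87. The other 4 were lower in the cytoplasm and higher in the whole cell: circNup155(26-28) with -7.37 and 5.56, circNup133(22-25) with -10.5 and 4.78, circPom121(2-3) with -8.26 and 5.81, and circNup205(18-31) with -5.47 and 7.54. The difference between the fractions was not tested, and the reads behind it are at most 14 per circle and library.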

How the results depend on the processing

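For mRNA, the count of called members stayed within 1.5 times (14 to 20) under DESeq2, other scalings, no filter and chromosome medians taken off, and was 15 to 19 without a library. With chromosome medians taken off, 2 members were called higher, and Nup37 (-0.037), Nup43 (-0.15), Nup107 (-0.12) and Ranbp2 (-0.18) turned sign. Among members not called, 4 turned sign without a library: Gle1 (-0.0056 to 0.097), Ndc1 (-0.0080 to 0.070), Rae1 (-0.011 to 0.093) and Nup210 (-0.64 to 0.042). Xpo4 ranged from 0.10 to 0.34 without a library.

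For cytoplasmic circRNAs, DESeq2 called 8 members and 879 in all, and edgeR without scaling 11 and 2353, with 27 and 4768 as reported. Without a library there were 9 to 22 members and 1928 to 3553 in all. For whole-cell circRNAs, library totals called 12 members and 2003 in all, DESeq2 called 7 in all, and leaving out a library gave 0 to 3 members and 0 to 508 in all. For nuclear circRNAs, against 66 in all, DESeq2 called 0, library totals 38, no filter 40, no scaling 0, and leaving out a library 3 to 29. The nuclear share difference, -0.036 percentage points, was 0 in reads as deposited. The whole-cell share difference, -0.0019 percentage points, ran from -0.027 to 0.023 without a library. The cause of these changes was not tested.

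The replicate number did not pair the libraries: deviations of same-numbered mRNA libraries correlated at 0.06, 0.04 and -0.09. With the replicate block, 20 member mRNAs, 25 cytoplasmic and 12 whole-cell member circRNAs were called, with 2054 whole-cell circRNAs in all. The nuclear libraries held the fewest reads, and their lists held 1 circle of these genes.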
